A study of Sus scrofa with 6 samples.

Results

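The genes described here carry out or control the burning of fatty acids. They are the pyruvate dehydrogenase kinases, the acyl-CoA synthetases, the carnitine shuttle into mitochondria, the mitochondrial and peroxisomal beta-oxidation enzymes, the ketone enzymes BDH1 and ACAT1, the PPAR regulators and UCP2. They were listed by gene symbol for their known roles, at a time when earlier results of these data were known. Of 37 symbols listed, 36 were matched through a pig Ensembl identifier to 1 row each of the 21911 rows in the table. The enoyl-CoA isomerase gene ECI1 had no matching row and was not analysed here. Of the 36 genes, 35 were tested because they averaged 1 FPKM or more across the libraries, and the electron transfer gene ETFB fell short of that.

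The 6 RNA-seq libraries were made from pig gut, 3 of a group named SMP and 3 of a Control group. Per the design text of the series, treated piglets drank a mineral water that was alkaline and based on metasilicate, and they were compared with control piglets; the labels name the treatment only as SMP. The labels give no gut segment, age, sex, breed or dose, and nothing on feeding before sampling. Whether each library stands for a separate animal is not stated, so p-values measure only the spread between these samples, which may be technical.

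Fatty acids are activated by acyl-CoA synthetases, passed into mitochondria as carnitine esters, and shortened there by repeated rounds of dehydrogenation, hydration, dehydrogenation and thiolysis. Pyruvate dehydrogenase kinases phosphorylate and shut the complex that turns pyruvate into acetyl-CoA, so their activity sets whether a cell burns sugar or fat, and PDK4 is the member of that family known to be induced by fasting, glucocorticoids and PPAR receptors. Peroxisomes shorten very long and branched chains. In the gut wall these enzymes serve epithelium, smooth muscle and immune cells alike, and ketone production is known to be low in pigs.

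Levels are in FPKM, a read count scaled by gene length and library total, so they can be set beside each other between genes. Library totals recovered from the values were 15927028 to 20712701, at which 3 reads in a gene of 2000 bases make 0.0724 to 0.0942 FPKM (counting error only). A log2 difference is the SMP mean less the Control mean of log2(FPKM + 1), given with its standard error (SE), and p-values are from limma with Benjamini-Hochberg adjustment over the 11471 genes tested. Means are given with the SD of 3 libraries a group. Markers of intestinal epithelium were high in every library, villin (VIL1) at 533, 574 and 792 FPKM in SMP and 438, 427 and 511 FPKM in Control. Of 4 enterocyte markers 0 passed the threshold, with 3 positive differences and 1 negative (sum 3483 to 4631 FPKM in SMP and 2421 to 3136 FPKM in Control). FABP2 was at 1154, 1211 and 2017 FPKM in SMP and 413, 659 and 743 FPKM in Control, without overlap (log2 difference 1.27, SE 0.30, adjusted p = 0.0612).

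Several differences ran along with the groups across these libraries. The Y-linked gene EIF1AY was read at 23.9 to 29.6 FPKM in SMP and at 0 to 0.187 FPKM in Control, so sex and treatment cannot be told apart in any result below. Markers of the proximal small intestine (GIP, MLN, SLC40A1, CYBRD1 and GATA4, 2 of 5 lower in SMP) summed to 100.02 to 119.6 FPKM in SMP and 192.8 to 491 FPKM in Control. The 2 that passed were GIP and MLN, and SLC40A1 and CYBRD1 were lower in every SMP library but did not pass. GATA4 was level, at 27.2 ± 4.86 FPKM in SMP and 27.4 ± 4.60 FPKM in Control (adjusted p = 0.971). Of 5 large intestine markers SLC26A3, OTOP2, CA4 and BEST4 were higher and AQP8 lower in SMP. SLC26A3 was at 19.9 ± 0.899 FPKM in SMP and 0.475 ± 0.0956 FPKM in Control, and OTOP2 at 22.6 ± 1.81 and 1.31 ± 0.429 FPKM. AQP8 was at 23.3 ± 8.17 FPKM in SMP and 153 ± 44.0 FPKM in Control. The sum of the 5 was 79.1 to 116 FPKM in SMP and 109 to 192 FPKM in Control, where AQP8 was the largest part. Leukocyte markers (2 of 6 lower) summed to 69.3 to 111 FPKM in SMP and 234 to 359.6 FPKM in Control. The 2 that passed were MZB1, at 16.8 ± 3.28 FPKM in SMP and 83.8 ± 14.4 FPKM in Control, and JCHAIN, at 36.7 ± 15.5 and 161.8 ± 60.7 FPKM. CD68 and AIF1 were lower in every SMP library but did not pass, and PTPRC and CD3E overlapped between the groups (adjusted p = 0.471 and 0.5655). The division markers TOP2A and CDK1 (1 of 2 higher) summed to 36.9 to 55.2 FPKM in SMP and 20.2 to 22.7 FPKM in Control. Smooth muscle markers (0 of 6 past the threshold) summed to 1537 to 2108 FPKM in SMP and to 962, 2675 and 160.4 FPKM in Control replicates 1, 2 and 3. Of the liver markers, ALB and SERPINA1 were at 0 to 0.118 FPKM, whereas APOB, which enterocytes also make, was at 52.6 to 147 FPKM in SMP and 49.3 to 105 FPKM in Control (0 of 1 tested past the threshold). Of the fat cell markers 0 of 2 tested passed the threshold, LEP was at 0 to 0.0299 FPKM, and ADIPOQ reached 1.19 FPKM in SMP and 4.37 FPKM in Control, in replicate 2 of each. CIDEC of the same list was far higher, at 21.5, 29.6 and 39.7 FPKM in SMP and 53.3, 41.0 and 54.2 FPKM in Control. Its groups did not overlap (log2 difference -0.72, SE 0.24, adjusted p = 0.123). The skeletal muscle marker TNNT3 was at 0 in 5 of 6 libraries, and CKM was at 9.31 to 12.3 FPKM in SMP and 0.235 to 19.2 FPKM in Control. The part of segment, cell make-up or sex in the results below was not tested, and in bulk tissue fewer cells of a type and less RNA per cell cannot be told apart. SMP replicate 3 and Control replicate 2 stood apart, with Pearson correlations across genes of 0.951 to 0.963 and 0.941 to 0.942 with the other libraries of their own groups, against 0.990 between SMP replicates 1 and 2 and 0.977 between Control replicates 1 and 3.

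Of these genes 4 passed the test, and most of the others differed by less than 0.5 on the log2 scale. PDK4 fell in SMP to 5.03 FPKM, against 20.8 FPKM in Control. The branched-chain acyl-CoA dehydrogenase gene ACADSB and the peroxisomal thiolase gene ACAA1 fell as well, and the carnitine palmitoyltransferase gene CPT2 rose. Thus 1 of 35 members passed as higher, where 3.5% of all tested genes did, and 3 of 35 passed as lower, where 2.1% of all tested genes did. In total 4 of 35 members passed, beside 642 of 11471 genes (5.6%). PDK4 is part of the name of the list, and without it 1 of 34 members passed as higher and 2 of 34 as lower. The median log2 difference of the 35 members was -0.04 and that of all tested genes was 0.09, and 29 members (82.9%) had differences smaller than 0.5 in size, as did 76.8% of all tested genes. The groups did not overlap in 12 members (34.3%, 4 higher and 8 lower in SMP), near the 32.6% of all tested genes.

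**Figure D1:**
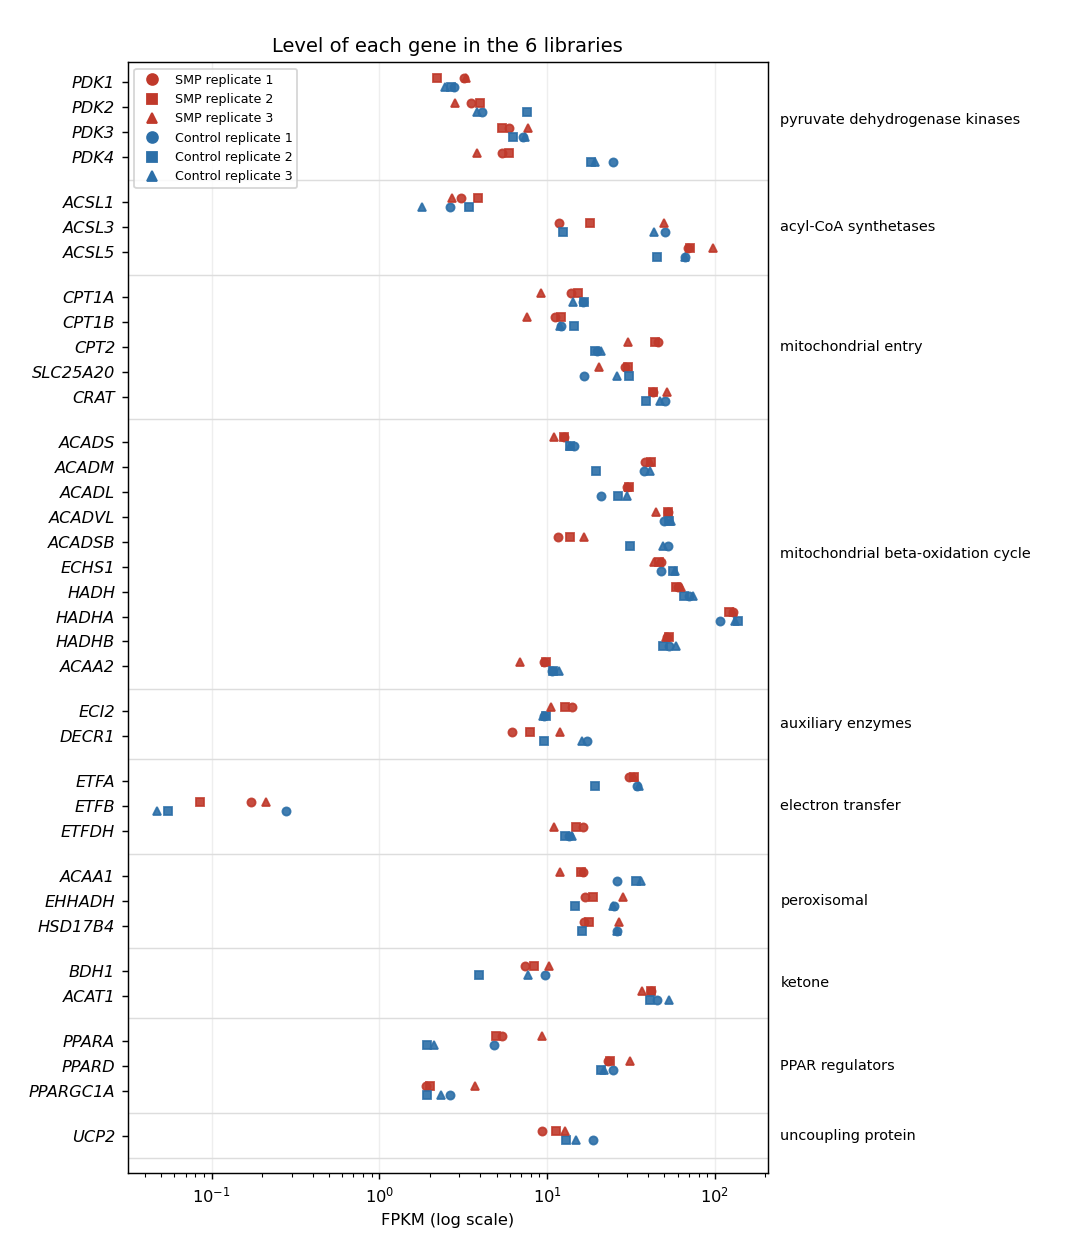
Level of each of the 36 genes in every library, in FPKM on a log scale, with SMP in red above Control in blue and the replicates marked by shape. HADHA is the highest gene at a mean of 126 FPKM, ETFB lies under 1 FPKM in all libraries, and the PDK4 and ACADSB points of SMP lie to the left of those of Control.

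**Figure D2:**
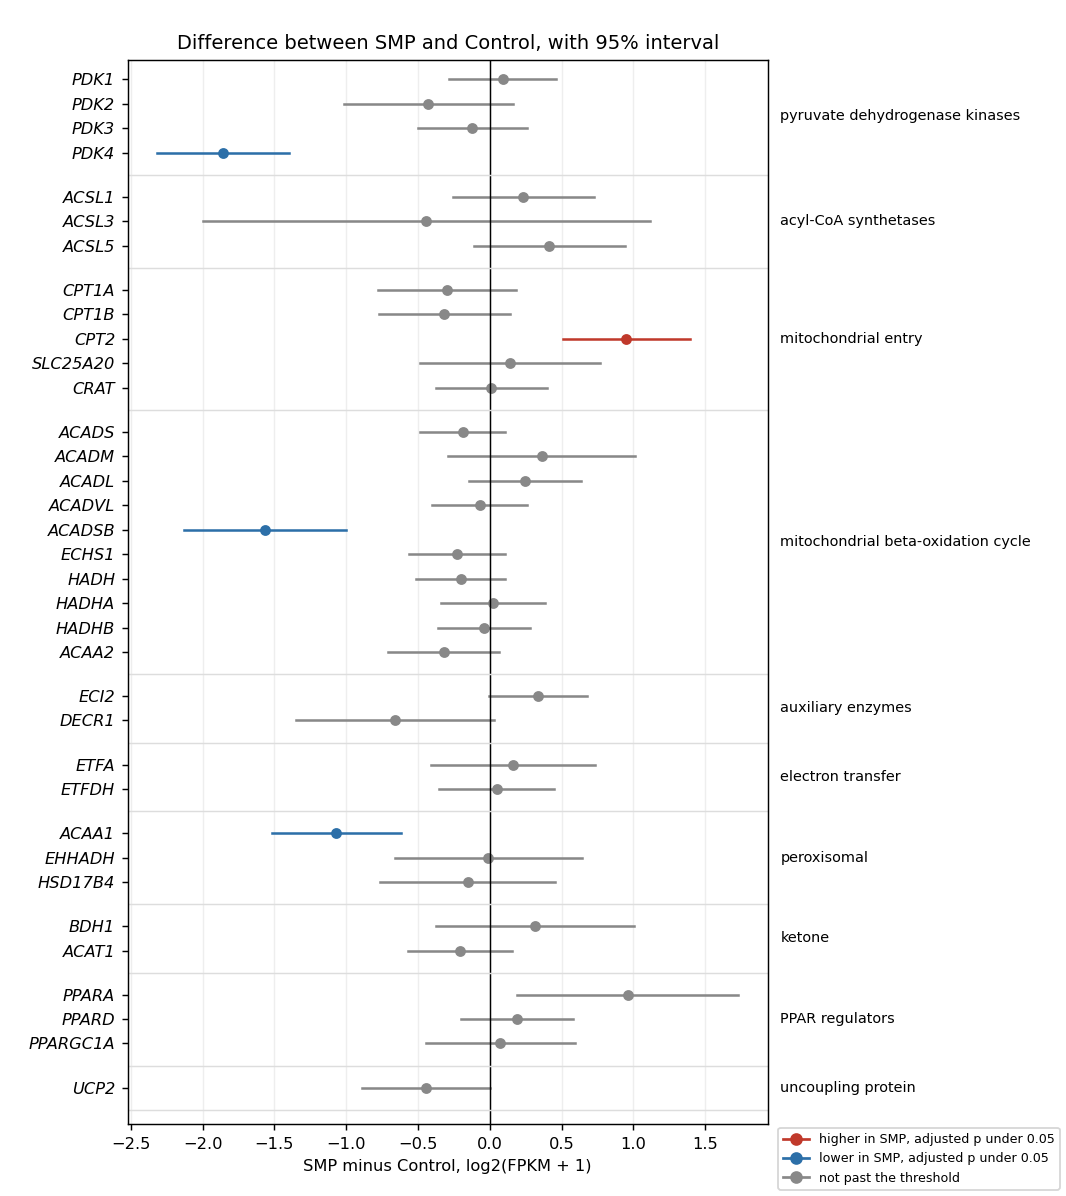
Difference between SMP and Control for the 35 tested genes on the log2(FPKM + 1) scale, with points for estimates and bars for the 95% interval of the limma fit before any adjustment. PDK4, ACADSB and ACAA1 are in blue to the left of 0 and CPT2 in red to the right, and the other 31 genes are grey.

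Among the pyruvate dehydrogenase kinases, PDK4 was the one that fell. PDK4 (ENSSSCG00000015334) was at 5.35, 5.93 and 3.79 FPKM in SMP replicates 1, 2 and 3, against 24.7, 18.1 and 19.4 FPKM in Control replicates 1, 2 and 3. Every SMP library was below every Control library, and the groups lay far apart. The mean was 4.13-fold lower in SMP (log2 difference -1.86, SE 0.19, adjusted p = 0.00739, 95% interval -2.32 to -1.40), and the values rest on 283 to 545 reads in SMP and 1297 to 1748 reads in Control. PDK4 was past the threshold in each of the 6 fits that left out a single library, with log2 differences of -1.97 to -1.70 and adjusted p of 0.0102 to 0.0475, and in all 11 other fits. In the RefSeq annotation it overlaps ASB4, which was listed at 0.0258, 0 and 0.0476 FPKM in SMP and at 0.853, 0.0827 and 0.586 FPKM in Control.

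The other kinases were expressed at lower or similar levels and overlapped between the groups. PDK2, a broadly expressed kinase, was at 3.52, 3.98 and 2.83 FPKM in the SMP libraries and 4.07, 7.60 and 3.81 FPKM in the Control libraries (log2 difference -0.43, SE 0.25, adjusted p = 0.330). Its Control replicate 2 lay apart from the rest at 7.60 FPKM. PDK3 was at 5.92, 5.38 and 7.70 FPKM in the SMP libraries and 7.19, 6.23 and 7.35 FPKM in the Control libraries (log2 difference -0.12, SE 0.16, adjusted p = 0.674). PDK1, a hypoxia-inducible kinase, was at 3.21, 2.21 and 3.29 FPKM in the SMP libraries and 2.80, 2.67 and 2.46 FPKM in the Control libraries (log2 difference 0.09, SE 0.16, adjusted p = 0.760), and the sign of its small difference turned with quantile normalization (-0.05) and with the gene length trend removed (-0.06). The 4 kinases summed to 17.5 to 18.01 FPKM in SMP and 33.0 to 38.8 FPKM in Control. PDK4 was the highest of the family in all 3 Control libraries, whereas PDK3 was highest in SMP replicates 1 and 3 and PDK4 in SMP replicate 2.

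The complex that these kinases act on had 1 gene past the threshold. PDP2, which encodes a phosphatase that removes the inhibiting phosphate and so opposes the kinases, rose to 6.57, 6.32 and 6.23 FPKM in SMP replicates 1, 2 and 3, against 3.41, 2.12 and 3.52 FPKM in Control replicates 1, 2 and 3 (log2 difference 0.90, SE 0.17, adjusted p = 0.0356). The groups did not overlap, and the mean was 2.11-fold higher in SMP. The quotient of PDK4 to PDP2 was 0.815, 0.939 and 0.609 in the SMP libraries and 7.25, 8.56 and 5.52 in the Control libraries, as a description. Both genes had passed in these data in opposite directions, so the gap in the quotient follows from those calls. The call of PDP2 was lost when values were quantile normalized (adjusted p = 0.0590), with no filter (0.0770) and without SMP replicate 1 (0.149), 2 (0.154) or 3 (0.0523) or Control replicate 1 (0.0716) or 3 (0.115).

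Of the 9 tested genes of the pyruvate dehydrogenase complex, its phosphatases and the pyruvate carrier, PDP2 passed the test and the other 8 did not. All 9 had a positive difference (median 0.31, all tested genes 0.09), as had 6759 of all 11471 tested genes. With quantile normalization 8 of the 9 had one, and 7 with median-ratio rescaling or with the gene length trend removed. With a single library left out, 7 to 9 had one. The E1 subunit gene PDHB was at 35.5 ± 3.22 FPKM in SMP and 26.3 ± 2.75 FPKM in Control (log2 difference 0.42, SE 0.15, adjusted p = 0.131), and DLD, the E3 subunit gene, at 14.2 ± 0.588 FPKM in SMP and 10.8 ± 0.906 FPKM in Control (log2 difference 0.36, SE 0.13, adjusted p = 0.137). DLAT, encoding the E2 subunit, was at 12.6 ± 2.09 FPKM in SMP and 9.15 ± 0.909 FPKM in Control (log2 difference 0.41, SE 0.16, adjusted p = 0.173). The groups did not overlap in 6 of the 9 genes, where 32.6% of all tested genes did not overlap. In these 6 all SMP values were above all Control values, as in 21.1% of all tested genes. PDHA1, the other E1 subunit gene, was at 32.7 ± 2.997 FPKM in SMP and 31.6 ± 3.24 FPKM in Control (log2 difference 0.05, SE 0.15, adjusted p = 0.866).

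**Figure D3:**
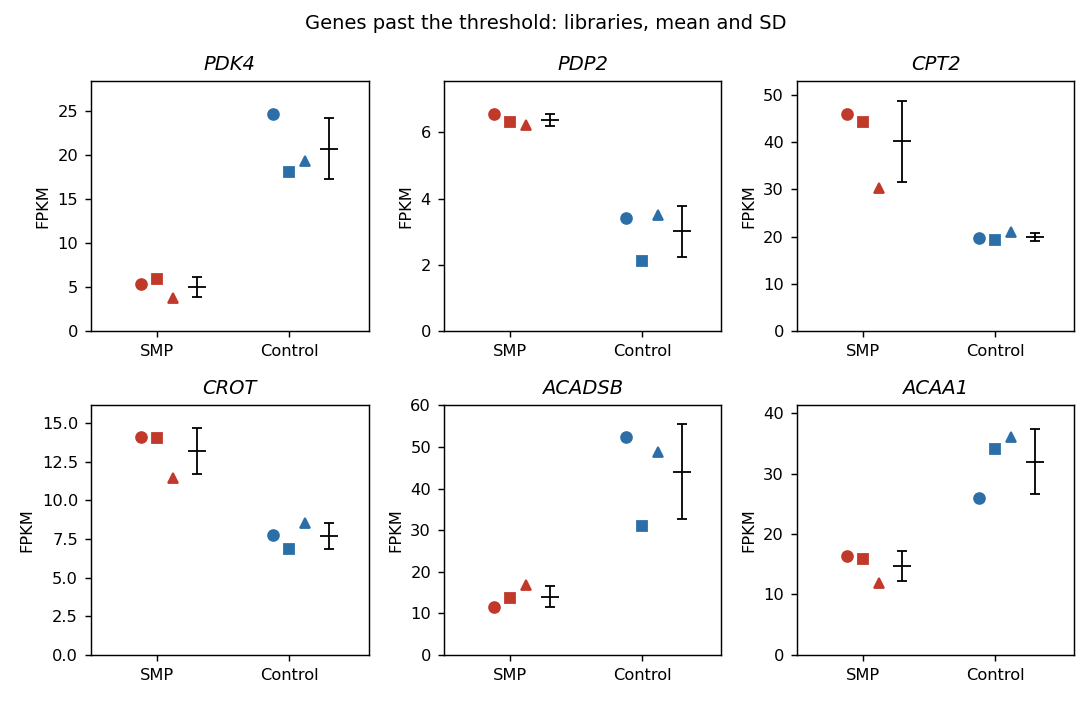
FPKM of the 6 genes past the threshold, 4 members and the other pathway genes PDP2 and CROT, with SMP in red on the left, Control in blue on the right and bars for the mean and SD of 3 libraries. In each panel the 3 SMP points lie on 1 side of the 3 Control points, and PDK4 is at 3.79 to 5.93 FPKM in SMP and 18.1 to 24.7 FPKM in Control.

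The acyl-CoA synthetases, which activate fatty acids, did not pass the test. ACSL5, the main synthetase of the enterocyte among the 3, was at 68.7, 70.8 and 97.4 FPKM in SMP replicates 1, 2 and 3, against 66.5, 45.0 and 66.0 FPKM in Control replicates 1, 2 and 3 (log2 difference 0.41, SE 0.22, adjusted p = 0.293). All SMP values were above all Control values, by a margin smaller than the spread within either group. ACSL3, an enzyme of the endoplasmic reticulum and lipid droplets, was at 11.7, 18.1 and 49.6 FPKM in the SMP libraries and 50.5, 12.5 and 43.3 FPKM in the Control libraries. Its values split within both groups, with SMP replicate 3 beside Control replicates 1 and 3 and Control replicate 2 beside SMP replicates 1 and 2 (log2 difference -0.44, SE 0.66, adjusted p = 0.711). Without SMP replicate 3 and Control replicate 2 it passed as lower (log2 difference -1.61, adjusted p = 0.0126), where 10.7% of all tested genes did. These were the libraries that made its groups overlap. ACSL1 was low, at 3.22 ± 0.602 FPKM in SMP and 2.63 ± 0.827 FPKM in Control (log2 difference 0.23, SE 0.21, adjusted p = 0.523).

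In the carnitine shuttle the inner and outer membrane enzymes differed in what they showed. CPT2 (ENSSSCG00000003851), which turns acylcarnitine back into acyl-CoA inside the mitochondrion, was at 46.0, 44.2 and 30.3 FPKM in SMP replicates 1, 2 and 3, against 19.7, 19.3 and 20.9 FPKM in Control replicates 1, 2 and 3. The Control libraries lay close together, SMP replicate 3 was the lowest SMP library, and the groups did not overlap. The mean was 2.01-fold higher in SMP (log2 difference 0.95, SE 0.19, adjusted p = 0.0370, 95% interval 0.51 to 1.39). The call was lost with no filter (adjusted p = 0.0667) and without SMP replicate 1 (0.152) or 2 (0.165) or Control replicate 1 (0.0950), 2 (0.0505) or 3 (0.138), with log2 differences of 0.84 to 0.98 in these fits.

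CPT1A and CPT1B, the liver and muscle forms of the outer membrane enzyme that is the controlled step of entry, did not pass the test. CPT1A was at 12.8 ± 3.21 FPKM in SMP and 15.7 ± 1.31 FPKM in Control, and CPT1B at 10.3 ± 2.35 FPKM in SMP and 12.9 ± 1.46 FPKM in Control. Their differences were close to each other (-0.30 and -0.32, adjusted p = 0.402 and 0.353), and SMP replicate 3 was the lowest of the 6 libraries for both. The muscle form was not scarce, since the quotient of CPT1A to CPT1B was 1.21 to 1.27 in SMP and 1.145 to 1.355 in Control. The quotient of CPT2 to CPT1A was 2.88 to 3.30 in SMP and 1.158 to 1.47 in Control. CPT2 had passed in these data and CPT1A had not, so the gap in this quotient is not a separate result. The carnitine-acylcarnitine carrier SLC25A20 was at 26.6 ± 5.49 FPKM in SMP and 24.4 ± 7.28 FPKM in Control (log2 difference 0.14, SE 0.27, adjusted p = 0.774). The carnitine acetyltransferase CRAT was at 45.8 ± 5.38 FPKM in SMP and 45.5 ± 6.01 FPKM in Control (log2 difference 0.01, 95% interval -0.38 to 0.40).

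Most of the mitochondrial cycle was near level between the groups. HADHA and HADHB, the subunits of the trifunctional protein that works on long chains, did not pass the test. HADHA was at 126 ± 3.95 FPKM in SMP and 125 ± 16.5 FPKM in Control, and HADHB at 52.0 ± 1.01 FPKM in SMP and 53.7 ± 4.96 FPKM in Control. HADHA was the highest of all members, its log2 difference was 0.02 with a 95% interval of -0.34 to 0.38, and that of HADHB was -0.04 with an interval of -0.36 to 0.28. The genes are neighbours in the RefSeq gene order, and the quotient of HADHA to HADHB was 2.29 to 2.51 in SMP and 2.005 to 2.82 in Control. The very long-chain dehydrogenase ACADVL was at 50.05 ± 4.71 FPKM in SMP and 52.5 ± 2.73 FPKM in Control (log2 difference -0.07, SE 0.14, adjusted p = 0.784).

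ACADSB (ENSSSCG00000010723) was the exception within the cycle. It encodes the short/branched-chain acyl-CoA dehydrogenase, which acts in isoleucine breakdown as well as on short fatty acids. It was at 11.6, 13.7 and 16.7 FPKM in SMP replicates 1, 2 and 3, against 52.3, 31.0 and 48.9 FPKM in Control replicates 1, 2 and 3. All SMP values were below all Control values, with Control replicate 2 nearest to SMP. The mean was 3.15-fold lower in SMP (log2 difference -1.57, SE 0.24, adjusted p = 0.0221, 95% interval -2.13 to -1.005). The call was lost without SMP replicate 1 (adjusted p = 0.103) or 2 (0.109) or Control replicate 1 (0.0602) or 3 (0.108), and held in the other fits with a single library left out. In RefSeq the gene overlaps IKZF5, which was at 3.01, 2.94 and 3.43 FPKM in SMP and 3.64, 2.48 and 3.52 FPKM in Control.

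The other acyl-CoA dehydrogenases, sorted by chain length, did not pass the test. ACADM (medium chains) was at 38.5, 41.5 and 41.3 FPKM in the SMP libraries and 37.9, 19.6 and 40.9 FPKM in the Control libraries, with Control replicate 2 far below the other libraries (log2 difference 0.36, SE 0.28, adjusted p = 0.461). ACADL (long chains) was at 30.3 ± 0.339 FPKM in SMP and 25.7 ± 4.63 FPKM in Control (log2 difference 0.24, SE 0.16, adjusted p = 0.404). ACADS (short chains) was at 12.6, 12.6 and 11.0 FPKM in the SMP libraries and 14.4, 13.7 and 13.6 FPKM in the Control libraries, with all SMP values below all Control values (log2 difference -0.19, SE 0.13, adjusted p = 0.394).

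At the remaining steps of the cycle, ECHS1, HADH and ACAA2 had small negative differences that did not pass the test. The hydratase ECHS1 was at 47.8, 46.6 and 43.3 FPKM in the SMP libraries and 47.9, 56.6 and 57.9 FPKM in the Control libraries (log2 difference -0.23, SE 0.14, adjusted p = 0.358), where SMP replicate 1 and Control replicate 1 nearly touched. The short-chain hydroxyacyl-CoA dehydrogenase HADH was at 60.4, 58.6 and 62.7 FPKM in the SMP libraries and 70.2, 65.1 and 74.4 FPKM in the Control libraries (log2 difference -0.20, SE 0.13, adjusted p = 0.385). The thiolase ACAA2 was at 9.57, 9.82 and 6.89 FPKM in the SMP libraries and 10.6, 10.8 and 11.8 FPKM in the Control libraries (log2 difference -0.32, SE 0.16, adjusted p = 0.269), and SMP replicate 3 was its lowest library. In all 3 genes the groups did not overlap, and the means were 1.15-fold to 1.27-fold lower in SMP. Of the 10 genes of the cycle, 1 passed as lower and 9 did not pass, and the median was -0.13, with 7 negative and 3 positive differences. In 5 of the 10 all SMP values were below all Control values, beside 11.5% of all tested genes, and in 0 were they all above, beside 21.1%. With quantile normalization 5 differences were negative and 5 positive. With median-ratio rescaling, and with the gene length trend removed, 8 were negative and 2 positive. Over all tested genes as deposited, 4712 of 11471 differences were negative and 6759 positive.

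Auxiliary enzymes and electron carriers also stayed under the threshold. ECI2, an isomerase for unsaturated chains, was at 14.0, 12.8 and 10.6 FPKM in the SMP libraries and 9.60, 9.84 and 9.45 FPKM in the Control libraries, with all SMP values above all Control values (log2 difference 0.33, SE 0.14, adjusted p = 0.200). DECR1, the reductase needed for polyunsaturated chains, was at 6.20, 7.95 and 11.98 FPKM in the SMP libraries and 17.2, 9.57 and 16.1 FPKM in the Control libraries (log2 difference -0.66, SE 0.29, adjusted p = 0.209). SMP replicate 3 lay above Control replicate 2 in DECR1, so the groups overlapped. Without SMP replicate 3 and Control replicate 2, ECI2 passed as higher and DECR1 as lower (log2 difference 0.46, adjusted p = 0.0313 for ECI2, and log2 difference -1.14, adjusted p = 0.0109 for DECR1). In that fit 15.7% of all tested genes passed as higher and 10.7% as lower. In both genes each library left out was the one of its group nearest to the other group, so the wider separation follows from leaving them out.

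ETFA, a subunit of the flavoprotein that takes electrons from the dehydrogenases, was at 32.3 ± 1.48 FPKM in SMP and 29.8 ± 9.03 FPKM in Control, and ETFDH, which hands them to ubiquinone, at 14.1 ± 2.75 FPKM in SMP and 13.4 ± 0.635 FPKM in Control (log2 differences 0.16 and 0.05). The partner subunit ETFB was listed at 0.171, 0.0851 and 0.210 FPKM in SMP and 0.277, 0.0547 and 0.0473 FPKM in Control, from 10 and 7 reads in all. The subunits work as a dimer, so the row may not hold a full model of the gene, which was not tested, and ETFB was too low to test.

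In peroxisomes 1 of the 3 members fell. ACAA1 (ENSSSCG00000011250), the thiolase that ends the peroxisomal cycle, was at 16.4, 15.9 and 11.9 FPKM in SMP replicates 1, 2 and 3, against 25.9, 34.0 and 36.0 FPKM in Control replicates 1, 2 and 3. The groups did not overlap, with SMP replicate 3 the lowest library and Control replicate 1 the lowest of its group. The mean was 2.17-fold lower in SMP (log2 difference -1.07, SE 0.19, adjusted p = 0.0301, 95% interval -1.52 to -0.62). The call was lost with no filter (adjusted p = 0.0561) and without SMP replicate 1 (0.109) or 2 (0.130) or Control replicate 1 (0.0515) or 3 (0.131). ACAA1 overlaps DLEC1 and MYD88 in RefSeq. MYD88 was at 10.9, 10.6 and 8.67 FPKM in SMP and 13.4, 8.46 and 11.7 FPKM in Control, and DLEC1 was under 0.4 FPKM in all libraries.

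The bifunctional enzymes of the same cycle did not pass the test. EHHADH was at 16.7, 18.7 and 28.5 FPKM in the SMP libraries and 25.0, 14.7 and 24.7 FPKM in the Control libraries (log2 difference -0.01, SE 0.28, adjusted p = 0.986), and HSD17B4 at 16.6, 17.8 and 26.8 FPKM in the SMP libraries and 26.1, 16.2 and 26.2 FPKM in the Control libraries (log2 difference -0.15, SE 0.26, adjusted p = 0.745). In both genes SMP replicate 3 and Control replicates 1 and 3 were the high libraries, and SMP replicates 1 and 2 and Control replicate 2 the low ones. Without SMP replicate 3 and Control replicate 2, both passed as lower (log2 difference -0.47, adjusted p = 0.0300 for EHHADH, and log2 difference -0.58, adjusted p = 0.0163 for HSD17B4). In that fit 10.7% of all tested genes passed as lower. The libraries left out were the ones that made the groups overlap, so the separation follows from leaving them out.

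Among 11 other peroxisomal genes tested, CROT passed as higher and none as lower, and the median was -0.03, where that of all tested genes was 0.09. CROT, the carnitine octanoyltransferase that exports medium chains made in peroxisomes, was at 14.1, 14.0 and 11.5 FPKM in SMP replicates 1, 2 and 3, against 7.73, 6.83 and 8.51 FPKM in Control replicates 1, 2 and 3 (log2 difference 0.71, SE 0.15, adjusted p = 0.0435). The groups did not overlap, and the mean was 1.71-fold higher in SMP. The call was lost with no filter (adjusted p = 0.0708), with the gene length trend removed (0.0596) and without SMP replicate 1 (0.177) or 2 (0.187) or Control replicate 1 (0.1004), 2 (0.0551) or 3 (0.132). PHYH, which starts the breakdown of phytanic acid, was at 16.9, 24.9 and 62.4 FPKM in the SMP libraries and 66.0, 69.8 and 96.6 FPKM in the Control libraries (log2 difference -1.32, SE 0.45, adjusted p = 0.123).

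The ketone members were BDH1 and ACAT1, which act in both ketone making and ketone use. BDH1, the hydroxybutyrate dehydrogenase, was at 7.42, 8.32 and 10.2 FPKM in the SMP libraries and 9.67, 3.95 and 7.71 FPKM in the Control libraries (log2 difference 0.31, SE 0.29, adjusted p = 0.540), with Control replicate 2 the lowest. ACAT1, the mitochondrial acetoacetyl-CoA thiolase, was at 41.9, 41.7 and 36.8 FPKM in the SMP libraries and 45.5, 41.2 and 53.6 FPKM in the Control libraries (log2 difference -0.21, SE 0.15, adjusted p = 0.435). OXCT1, the transferase that lets cells burn ketones, was at 9.17, 8.65 and 11.9 FPKM in the SMP libraries and 6.11, 6.45 and 5.86 FPKM in the Control libraries (log2 difference 0.60, SE 0.15, adjusted p = 0.0672). All SMP values of OXCT1 were above all Control values, and it missed the threshold. Of the other ketone genes 0 of 2 tested passed in limma, and both had an unadjusted p under 0.05, as had 25.8% of all tested genes.

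BDH2, a cytosolic dehydrogenase once assigned to ketone use, was at 27.7, 28.9 and 28.2 FPKM in the SMP libraries and 38.9, 37.2 and 51.6 FPKM in the Control libraries (log2 difference -0.56, SE 0.16, adjusted p = 0.0913). SLC16A7, a monocarboxylate transporter that carries pyruvate and ketones, was under the mean of 1 FPKM needed for the test, at 0.719, 0.684 and 0.554 FPKM in the SMP libraries and 0.0932, 0.134 and 0.145 FPKM in the Control libraries (284 reads in SMP and 47 in Control). It was singled out after its values were seen, and with no filter its log2 difference was 0.56 (adjusted p = 0.0289).

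The PPAR regulators did not pass the test. PPARA, the receptor that switches on fatty acid oxidation genes, was at 5.39, 4.98 and 9.26 FPKM in SMP replicates 1, 2 and 3, against 4.84, 1.92 and 2.12 FPKM in Control replicates 1, 2 and 3. All SMP values were above all Control values, but Control replicate 1 reached 4.84 FPKM and the lowest SMP value was 4.98 FPKM (log2 difference 0.96, SE 0.33, adjusted p = 0.124, 95% interval 0.19 to 1.73). PPARD, the receptor most abundant of the PPAR genes here, was at 23.0, 23.8 and 31.1 FPKM in the SMP libraries and 24.7, 20.9 and 21.9 FPKM in the Control libraries (log2 difference 0.19, SE 0.17, adjusted p = 0.513). The coactivator PPARGC1A was low, at 1.90, 2.01 and 3.69 FPKM in the SMP libraries and 2.62, 1.92 and 2.32 FPKM in the Control libraries (log2 difference 0.07, SE 0.22, adjusted p = 0.860). SMP replicate 3 was the highest library for all 3, and the sign of PPARGC1A turned without it (-0.15).

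PPARG, a receptor of fat storage from the list of other regulators, was at 2.10, 2.81 and 2.93 FPKM in SMP replicates 1, 2 and 3, against 16.8, 4.15 and 11.2 FPKM in Control replicates 1, 2 and 3. Control replicate 2 lay near the SMP libraries, and PPARG did not pass (log2 difference -1.53, SE 0.43, adjusted p = 0.0828). Without that library it passed as lower (log2 difference -2.04, adjusted p = 0.00942), where 4.59% of all tested genes did. The library left out was the Control library nearest to SMP, so the wider separation follows from leaving it out. RXRA, the partner of the PPAR receptors on DNA, was at 44.2, 44.5 and 39.5 FPKM in the SMP libraries and 31.2, 26.0 and 29.6 FPKM in the Control libraries (log2 difference 0.55, SE 0.14, adjusted p = 0.0679). It missed the threshold with groups that did not overlap. RXRA passed as higher without SMP replicate 3 (adjusted p = 0.0450), where 6.76% of all tested genes did, and under quantile normalization (0.0309), where 3.32% did. SMP replicate 3 was the SMP library of RXRA nearest to Control, so leaving it out widens the separation. Of the 11 regulators tested in that list 0 passed in limma, and 5 had an unadjusted p under 0.05, as had 25.8% of all tested genes (median 0.11, all tested genes 0.09).

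UCP2, a mitochondrial carrier regulated by PPAR receptors and fatty acids, was at 9.26, 11.2 and 12.8 FPKM in the SMP libraries and 18.8, 12.9 and 14.8 FPKM in the Control libraries. All SMP values were below all Control values, with SMP replicate 3 at 12.8 FPKM and Control replicate 2 at 12.9 FPKM, and it did not pass (log2 difference -0.44, SE 0.19, adjusted p = 0.195). Without these libraries it passed as lower (log2 difference -0.66, adjusted p = 0.0418), where 10.7% of all tested genes did. The libraries left out were the ones in which the groups nearly touched, so the wider separation follows from leaving them out.

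Genes known as PPAR or fasting targets were set beside PDK4 from a list of other genes of the pathway. Of 9 tested, 0 passed in limma in either direction, with 4 at an unadjusted p under 0.05, beside 25.8% of all tested genes (median -0.30, all tested genes 0.09). TXNIP, a sensor of glucose supply, was at 65.2, 70.3 and 48.3 FPKM in the SMP libraries and 103, 153 and 94.1 FPKM in the Control libraries (log2 difference -0.91, SE 0.24, adjusted p = 0.0731), and CREB3L3, a fasting-responsive factor of gut and liver, at 215, 204 and 122 FPKM in the SMP libraries and 275, 319 and 324 FPKM in the Control libraries (log2 difference -0.80, SE 0.24, adjusted p = 0.0968). The groups did not overlap in either, with SMP the lower. ANGPTL4, a PPAR target of the gut, was at 21.9 ± 3.90 FPKM in SMP and 27.4 ± 6.25 FPKM in Control (log2 difference -0.30, SE 0.22, adjusted p = 0.444). PLIN2, a lipid droplet coat protein, was at 24.1, 22.8 and 7.68 FPKM in the SMP libraries and 5.70, 12.5 and 9.15 FPKM in the Control libraries (log2 difference 0.83, SE 0.45, adjusted p = 0.303), where SMP replicate 3 lay among the Control libraries.

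In the list of carnitine supply and other mitochondrial genes, 0 of 8 tested passed in limma, with 1 at an unadjusted p under 0.05, beside 25.8% of all tested genes (median -0.09, all tested genes 0.09). ACAD11, an acyl-CoA dehydrogenase, was at 6.46, 6.61 and 4.02 FPKM in the SMP libraries and 7.23, 11.8 and 11.1 FPKM in the Control libraries (log2 difference -0.72, SE 0.24, adjusted p = 0.121), with all SMP values below all Control values. IVD, a dehydrogenase of leucine breakdown, was at 9.02, 8.82 and 6.65 FPKM in the SMP libraries and 6.44, 7.45 and 6.52 FPKM in the Control libraries (log2 difference 0.22, SE 0.15, adjusted p = 0.412). Over all 50 other genes of the pathway that were tested, 2 passed as higher and 0 as lower, beside 3.5% and 2.1% of all tested genes, and 21 (42%) had groups that did not overlap, beside 32.6% of all tested genes.

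**Figure D4:**
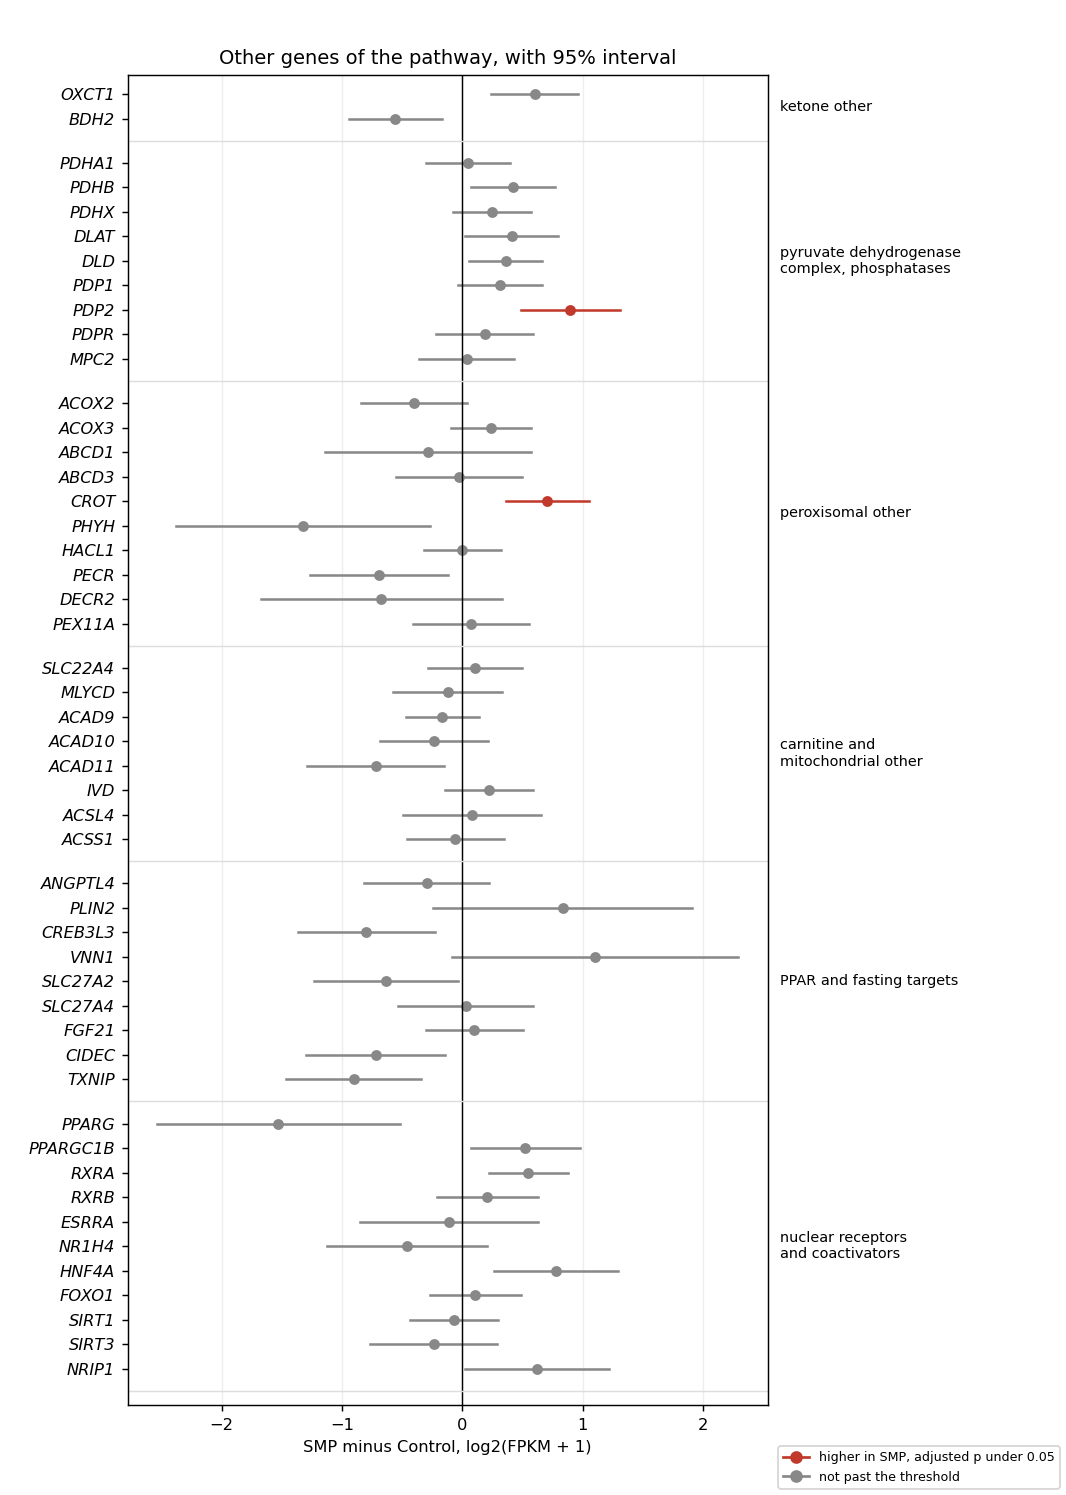
Difference between SMP and Control for tested genes of the pathway outside the 37 listed ones, on the log2(FPKM + 1) scale with 95% intervals of the limma fit before any adjustment. PDP2 and CROT are in red to the right of 0, and the other genes drawn are grey.

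Set side by side, the role groups of more than 1 gene had medians from -0.27 to 0.23 on the log2 scale. The kinases had -0.27 (4 genes), the auxiliary enzymes -0.16 (2 genes), the peroxisomal enzymes -0.15 (3 genes) and the mitochondrial cycle -0.13 (10 genes). Mitochondrial entry had 0.01 (5 genes), the ketone enzymes 0.05 (2 genes), the electron carriers 0.10 (2 genes), the PPAR regulators 0.19 (3 genes) and the synthetases 0.23 (3 genes). The electron carriers, the PPAR regulators and the synthetases sat above the median of all tested genes, 0.09, and the others below it. UCP2, alone in its group, had -0.44. No test was made of these medians.

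The libraries that stood apart over all genes also lay apart in many members. SMP replicate 3 was the SMP library farthest from the rest of its group in 27 of 35 members (77.1%, all tested genes 66.7%), and Control replicate 2 that of Control in 17 of 35 (48.6%, all tested genes 49.9%). Without both libraries, 2 members passed as higher, CPT2 and ECI2, where 15.7% of all tested genes did. In that fit 8 passed as lower, PDK4, ACSL3, ACADSB, DECR1, ACAA1, EHHADH, HSD17B4 and UCP2, where 10.7% of all tested genes did. Rescaling the libraries by median ratios gave 343 genes higher and 462 lower over the whole table (42.6% of calls higher), and removing the trend with gene length gave 375 and 408 (47.9%), against 401 and 241 (62.5%) as deposited. The same 4 members passed in each of these fits, in the same direction.

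**Figure D5:**
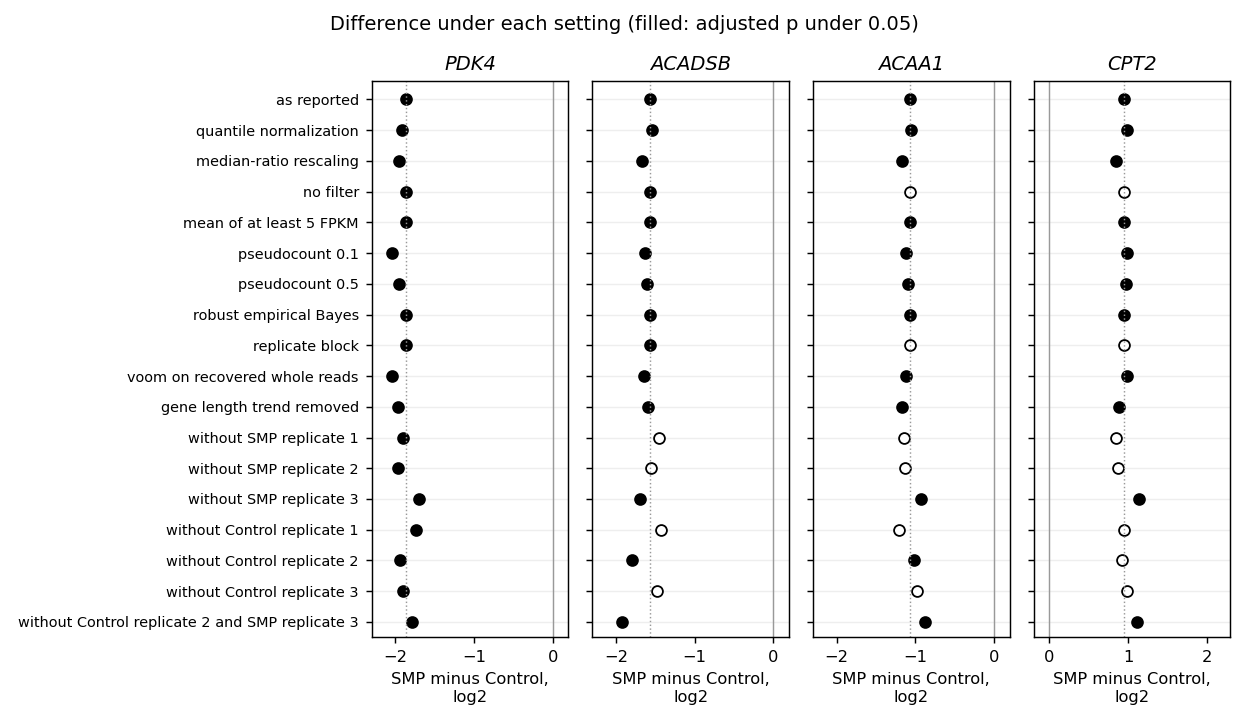
Log2 difference of PDK4, ACADSB, ACAA1 and CPT2 under each of 18 settings, with filled points for an adjusted p under 0.05, open points for one above it and a dotted line at the value as reported. PDK4 is filled in every row, between -2.05 and -1.70, and CPT2 is open in 7 of the rows.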

How the data were processed

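The authors deposited 1 FPKM value per gene and sample, as read from the values: every value is an integer count scaled by the length of its gene and by the total of its library. The integers were recovered for 21911 of 21911 genes (100%, relative tolerance 5e-09), and they may be reads or pairs. Per the submitters' processing notes DESeq2 1.16.1, HISAT2 2.0.5 and StringTie were used, in roles not stated, and the build is mm10, a mouse build. The identifiers are pig Ensembl ones, so the build is unsettled and no coordinates are given. No source used here gives the strand or multi-mapping rules, so reads of overlapping genes cannot be told apart (13 of the 37 members overlap another gene in RefSeq's Sscrofa11.1 table). Per the labels' protocols, total RNA went into a NEBNext Ultra kit.

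A table of gene names matched 14153 identifiers. limma 3.58.1 in R 4.3.3 was run on log2(FPKM + 1) of the 11471 genes that averaged 1 FPKM or more, treatment only, with an empirical Bayes trend and a threshold of 0.05. The step was tested on simulated data with the same spread set for all genes and no library standing apart. That test therefore does not cover the libraries that stood apart here. Counts of replicates differed beyond sampling noise in each pair (chi-square of 13.5 to 111 per degree of freedom), so no library was counted as a copy of another. This does not show separate animals. Members, lists and tests were chosen with earlier results of these data known. The rule for named genes gave library values for members past the threshold or with groups that did not overlap, for PDK1 to PDK3 and for the PPAR regulators, and for each other list the genes past the threshold or else the 2 with the smallest p. Genes named beyond it, such as PDHB, PHYH, ANGPTL4 and the members given for completeness, were chosen after their values were seen. Alternatives were other scalings, filters and pseudocounts, a robust fit, voom, a replicate block and each library left out; removal of the gene length trend (lowess, span 0.4) was added after seeing the data. Promoter and protein sequences were not used here, so the planned motif search was not run. Some genes of the lists are not reported here or drawn in the plots.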

Additional observations from a re-analysis of the deposited data

How the results depend on the processing

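PDK4 passed in all 17 alternatives, and ACADSB in all but 4 of the fits with a single library left out. The number of members higher (1 as reported) was 0 with no filter or with the replicate block, 2 without both Control replicate 2 and SMP replicate 3, and 0 to 1 with a single library left out, and that of members lower (3) was 8 without both libraries and 1 to 3 with a single one left out. Other pathway genes higher (2) numbered 1 with no filter, with a mean of at least 5 FPKM or with the gene length trend removed, 0 with the block, 11 without both libraries and 0 to 3 with a single one left out; those lower (0) numbered 1 with median-ratio rescaling or the length trend removed, 11 without both and 0 to 3 with a single one left out. Over the whole table, genes higher (401) numbered 158 with no filter, 241 with a mean of at least 5 FPKM, 115 with the block, 1804 without both libraries and 21 to 775 with a single one left out. Genes lower (241) numbered 462 with median-ratio rescaling, 100 with no filter, 121 with the block, 408 with the length trend removed, 1230 without both and 20 to 527 with a single one left out. The median of the kinases was -0.99 with a mean of at least 5 FPKM, which leaves fewer of them, and those of the auxiliary and peroxisomal enzymes were -0.342 and -0.578 without both libraries and ranged over -0.280 to -0.091 and -0.374 to -0.027 with a single one left out. The sign of PDK1 turned with quantile normalization (-0.051) and the length trend removed (-0.056), and that of PPARGC1A with these (-0.057 and -0.099), without both libraries (-0.232), and in fits with a single library left out, which gave -0.149 to 0.200. The cause was not tested. Same-numbered samples share only a number: their deviations correlated at -0.31, 0.32 and -0.04 for replicates 1, 2 and 3, and with the number as a block CPT2 (0.0863), ACAA1 (0.0734), PDP2 (0.0734) and CROT (0.115) had adjusted p above 0.05. ETFB, at 10 reads in SMP and 7 in Control, was too low to test, and 3 libraries a group limit the precision of the rest.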
